A study of Mus musculus with 4 samples.

Results

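Transcripts of 9 genes that mark or maintain hematopoietic stem and progenitor cells were examined in the bone marrow of obese mice with and without treadmill exercise. The genes were taken by name, namely Kit, Cd34, Ly6a, Slamf1 and Procr for surface proteins and Gata2, Meis1, Hlf and Mecom for nuclear regulators, and they are 9 of the 55401 genes in the tables. RNA-seq was available for 4 libraries. The 2 libraries of the obesity group (Ob) came from male mice of the strain labelled WT,C57/B6 that were given a high-fat diet (HFD) from 8 weeks of age. The 2 libraries of obesity combined with exercise (Ob + Exe) came from mice of the same sex, strain and diet that also ran on a treadmill at moderate intensity for 12 weeks. A lean or chow-fed group was not analysed here, so every value below is from marrow under HFD. The comparison asked how the level of each gene differed between exercised and sedentary obese mice.

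All blood cells descend from a small pool of hematopoietic stem cells in the marrow, which mostly rest and which give rise to progenitors that divide and commit to single lineages. Stem cells are recognised by combinations of surface proteins, since no single protein is unique to them, and they are maintained by transcription factors acting together and by ligands from surrounding marrow cells, such as stem cell factor, which binds the receptor made from Kit. Stem cells are rare in marrow, and most of the 9 genes are also expressed elsewhere, Kit and Gata2 in mast cells, Cd34, Procr and Ly6a in endothelium, Ly6a in T cells and Slamf1 in lymphocytes.

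Levels are given as FPKM, fragment counts divided by transcript length and by the fragments mapped in the library, summed over the annotated transcripts of a gene and scaled between libraries. A difference is a log2 difference of FPKM + 0.1, Ob + Exe minus Ob, with its standard error (SE) from limma fitted to the 18596 genes that averaged 0.1 FPKM or more. Tests were two-sided. A gene was called at an unadjusted p under 0.05 with a log2 difference beyond 1. The groups were called separated when both Ob + Exe libraries lay above, or both below, every Ob library. The libraries held 8702 to 9952 megabases of aligned sequence, and 12080 to 12547 genes reached 1 FPKM in each. The labels do not say whether the 2 libraries of a group came from separate mice, so p values measure only the spread between these libraries, and an exact permutation test of 2 against 2 cannot go below p = 0.333. The labels name the tissue bone marrow but also carry the entries mesenchymal stem cells and fibroblast. Summed levels were 55445 to 83519 FPKM for 10 erythroid genes and 28509 to 67666 FPKM for 11 neutrophil genes, against 27.0 to 41.3 FPKM for 12 genes of marrow stroma and fibroblasts, so the libraries were read as whole marrow.

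Of the 9 genes, 8 passed the minimum level and were tested, and Procr was below it. Slamf1 was lower in Ob + Exe and was the one gene called. This is 1 of 8, where 3.74% of all genes tested were called in either direction and 2.75% were called lower. None of the 8 was called higher, where 0.995% of all genes were, and Slamf1 was also the 1 gene of the 8 with an unadjusted p under 0.05. Groups were separated with Ob + Exe lower for 1 of the 8 genes, Slamf1, against 18.4% of all genes tested. They were separated with Ob + Exe higher for 3, Ly6a, Gata2 and Hlf, against 14.3% of all genes. The median log2 difference was -0.31 over the 8 genes and -0.02 over all genes tested. No gene of the 18596 had an adjusted p under 0.05 in limma, where 939 had an unadjusted p under 0.05 and the smallest adjusted p was 0.737. With the read-equivalent test, limma voom, the count under an adjusted p of 0.05 was also 0.

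**Figure D1:**
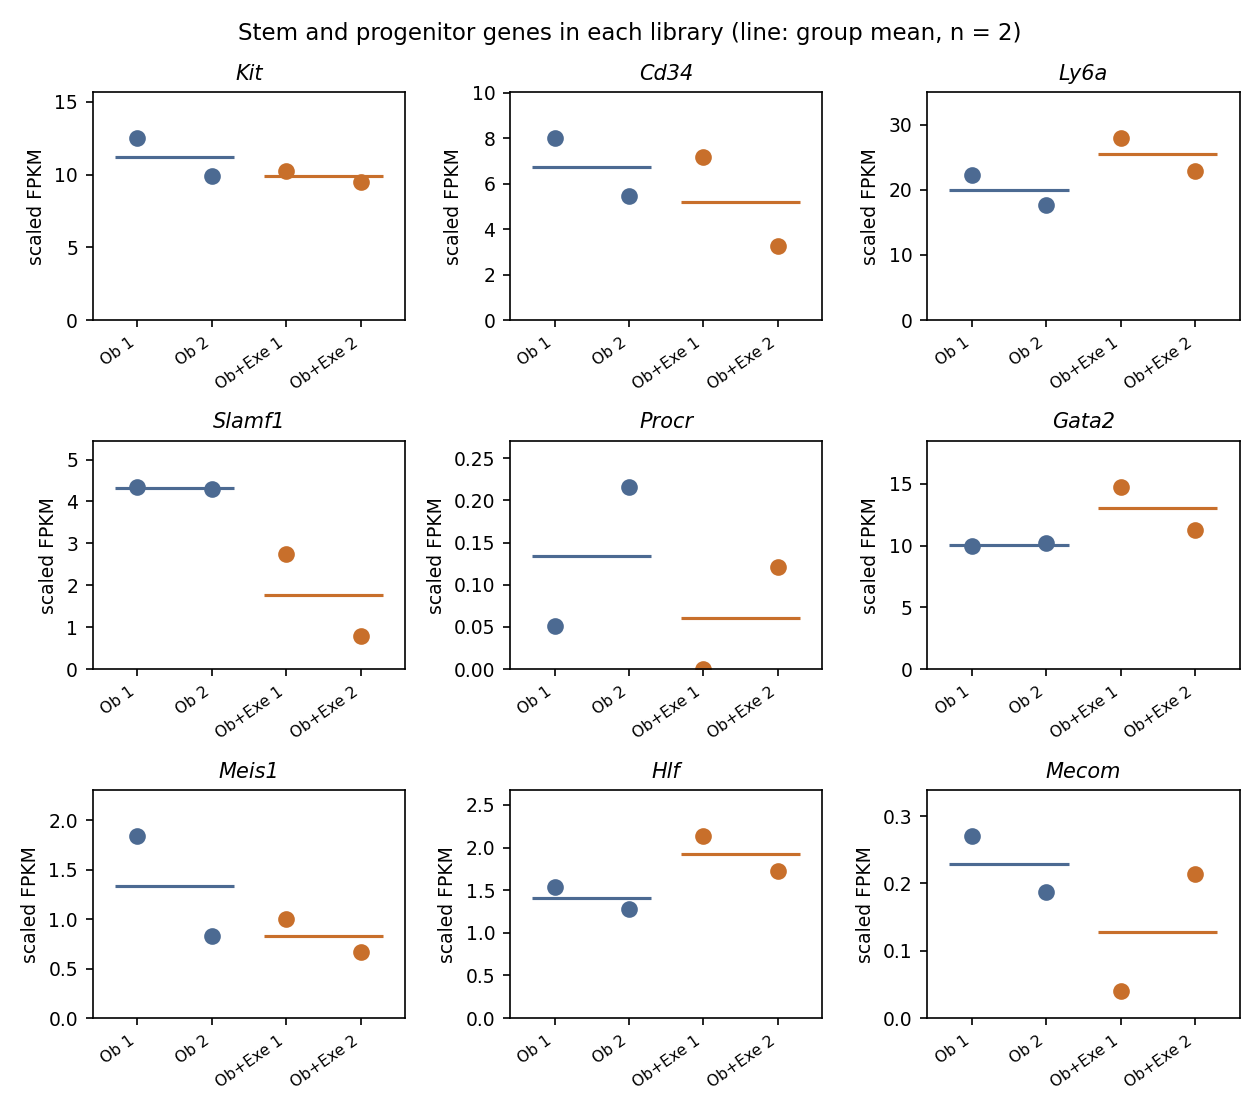
Scaled FPKM (vertical axis, linear, from 0) of the 9 genes in the 4 libraries, with Ob in blue and Ob + Exe in orange, 1 point per library and a line at each group mean (n = 2). Slamf1 was at 4.35 and 4.29 in Ob and then at 2.75 and 0.790 in Ob + Exe, while the libraries of both groups overlapped for Kit, Cd34, Procr, Meis1 and Mecom.

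By mean level over the libraries the order was Ly6a, Gata2, Kit, Cd34, Slamf1, Hlf, Meis1, Mecom and Procr. The lowest Ly6a library, at 17.7 FPKM, stood above the highest Gata2 library, at 14.8 FPKM. Gata2 and Kit overlapped, as did Cd34 with Slamf1, Slamf1 with Hlf, Hlf with Meis1, and Mecom with Procr. Kit stood above Cd34 in every library, with a lowest Kit value of 9.51 FPKM and a highest Cd34 value of 8.03 FPKM. Meis1 stood above Mecom in every library, with a lowest Meis1 value of 0.669 FPKM and a highest Mecom value of 0.271 FPKM. The first Ob library held the highest value of 5 genes, Kit, Cd34, Slamf1, Meis1 and Mecom, and the second Ob + Exe library held the lowest value of 4 genes, Kit, Cd34, Slamf1 and Meis1.

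Slamf1 (ENSMUSG00000015316.11, chr1:171767127-171801184 of GRCm38, plus strand) encodes CD150, a receptor of the SLAM family that is used with CD48 to single out stem cells and that lymphocytes and macrophages also carry. Its level was 4.35 and 4.29 FPKM in the Ob libraries and 2.75 and 0.790 FPKM in the Ob + Exe libraries. Both exercised libraries lay below both sedentary ones, and they lay far from each other. The mean was 4.32 ± 0.0447 FPKM in Ob, against 1.77 ± 1.39 FPKM in Ob + Exe (SD, n = 2 each), so that it fell by 59.0%. The log2 difference was -1.47 (SE 0.595), with an unadjusted p of 0.0495 and an adjusted p of 0.960 in limma, and Slamf1 stood at place 927 of the 18596 genes by p. Coverage times transcript length over 150 bases, the read length, gives read equivalents, and behind these levels stood 821 and 782 read equivalents, not scaled for depth, in Ob, against 440 and 122 in Ob + Exe. Without the second Ob + Exe library the log2 difference was -0.63 (unadjusted p = 0.0884, adjusted p = 0.420, limma), and without the first it was -2.31. Almost all of the Slamf1 signal, 93.2% to 98.9% in the 4 libraries, was assigned to 1 transcript. The call was also lost without the first and without the second Ob library (log2 difference -1.46 and -1.48, unadjusted p = 0.318 and 0.314, limma). It was lost with no minimum level, with a pseudocount of 0.01 and without the intensity trend of the fit (log2 difference -1.47, -1.54 and -1.47, unadjusted p = 0.0927, 0.0603 and 0.0890, limma), so in these 5 fits the size of the difference was kept and its p was larger.

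Because Slamf1 was the gene called, the 250 bases before its RefSeq transcription start (GRCm38.p6, chr1:171766882-171767131, plus strand) are shown. A set of 8 short motifs was searched on both strands of these windows, and none of them was found in the Slamf1 window, which is therefore in lower case throughout.
Slamf1: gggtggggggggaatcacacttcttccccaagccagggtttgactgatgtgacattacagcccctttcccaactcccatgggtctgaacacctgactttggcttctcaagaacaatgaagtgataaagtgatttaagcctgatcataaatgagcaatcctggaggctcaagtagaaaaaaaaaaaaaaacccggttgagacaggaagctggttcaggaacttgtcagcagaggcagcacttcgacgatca
No match says only that these letters are not in this window. The motifs were AGATAA for GATA factors, TGTGGT for RUNX factors, TGACAG for MEIS factors, GGAAGT for ETS factors, CAGCTG for an E-box, CCAAT for a CCAAT box, GGGCGG for a GC box and TATAAA for a TATA box. The last 3 were added after the windows had been seen.

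Kit (ENSMUSG00000005672.12, chr5:75574916-75656722, plus strand) encodes the receptor tyrosine kinase for stem cell factor, carried by stem cells, most early progenitors and mast cells. Its level was 12.5 and 9.91 FPKM in Ob, against 10.3 and 9.51 FPKM in Ob + Exe. The groups overlapped, since the first Ob + Exe library lay between the Ob libraries. The means were 11.2 ± 1.86 and 9.89 ± 0.535 FPKM (SD, n = 2 each), and the log2 difference of -0.17 (SE 0.249) did not pass the test (unadjusted p = 0.514, adjusted p = 0.975, limma). Kit had the most read equivalents of the 9 genes, with 2675 to 4332 read equivalents per library.

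Kit has a pair of coding transcripts that differ by 12 bases, at chr5:75639147-75639158, in the part of the receptor outside the cell and next to the membrane. The stretch is shown from the GENCODE vM21 transcripts on GRCm38, with the bases found only in Kit-201 in capitals.
Kit-201: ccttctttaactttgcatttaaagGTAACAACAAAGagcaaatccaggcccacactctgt
Kit-204: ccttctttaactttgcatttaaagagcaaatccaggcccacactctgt
Kit-201 has 2937 coding bases and Kit-204 has 2925. Kit-204 took 52.0% and 89.5% of the gene's FPKM in Ob, against 94.8% and 97.0% in Ob + Exe. Kit-201 took 43.5% in the first Ob library and was listed at 0 in the other 3 libraries. The difference in assignment thus lay between the Ob libraries as well as between the groups. Such shares are StringTie estimates, made here between transcripts that differ by few bases, and from Kit-204 alone the log2 difference was 0.31.

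Cd34 (ENSMUSG00000016494.9, chr1:194938819-194961279, plus strand) encodes a surface sialomucin of progenitors and endothelium, which is low on the most quiescent mouse stem cells. Its level was 8.03 and 5.44 FPKM in Ob, against 7.16 and 3.24 FPKM in Ob + Exe. The groups overlapped, and the second Ob + Exe library was the lowest. The means were 6.74 ± 1.83 and 5.20 ± 2.77 FPKM (SD, n = 2 each), with a log2 difference of -0.45 (SE 0.451) that did not pass the test (unadjusted p = 0.361, adjusted p = 0.961, limma). Without the second Ob + Exe library the log2 difference was 0.11, so the direction rested on that library.

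The main pair of Cd34 transcripts differs in where translation ends. The long-tailed transcript has 1146 coding bases and the short-tailed transcript has 975, because an extra stretch of 156 bases at chr1:194959780-194959935 adds 12 coding bases and then a stop codon, which shortens the tail inside the cell. The end of the short-tailed coding sequence is shown from GENCODE vM21, with the stop codon in capitals.
Cd34 short-tailed: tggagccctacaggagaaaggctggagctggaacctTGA
The long-tailed transcript took 59.3% and 87.6% of the gene's FPKM in Ob, against 83.9% and 7.39% in Ob + Exe. The short-tailed transcript took 40.3% and 12.4% in Ob, against 16.1% and 92.6% in Ob + Exe. The second Ob + Exe library stood apart from the other 3, and the first Ob + Exe library lay between the Ob libraries. The second Ob + Exe library had 32.2 read equivalents assigned to the long-tailed and 420 to the short-tailed transcript.

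Ly6a (ENSMUSG00000075602.10, chr15:74994877-74998031, minus strand) encodes Sca-1, a small surface protein attached by a lipid anchor, which is present on stem cells, T cells and endothelium. Its level was 22.3 and 17.7 FPKM in Ob, against 28.0 and 22.8 FPKM in Ob + Exe. Both exercised libraries lay above both sedentary ones, and the lower exercised library was close to the higher sedentary one. The means were 20.0 ± 3.28 and 25.4 ± 3.64 FPKM (SD, n = 2 each), with a log2 difference of 0.35 (SE 0.239) that did not pass the test (unadjusted p = 0.196, adjusted p = 0.960, limma). Of the 50-base stretches of the Ly6a transcripts, 18.97% occur in 4 other genes, I830127L07Rik, Ly6c1, Ly6c2 and Ly6i, so reads could be divided between these relatives. The gene was assigned to Ly6a-204 at 86.2% and 74.6% in Ob, against 0% and 98.9% in Ob + Exe, and Ly6a-201 took 100% in the first Ob + Exe library. Ly6a-201, Ly6a-204 and Ly6a-205 each have 402 coding bases and differ outside the coding sequence. From the most abundant transcript alone, Ly6a-204, the log2 difference was -3.41, so the direction rests on the sum over transcripts.

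Procr (ENSMUSG00000027611.12, chr2:155751117-155755471, plus strand) encodes the endothelial protein C receptor, EPCR, carried by stem cells and endothelium. Its level was 0.0508 and 0.216 FPKM in Ob, against 0 and 0.121 FPKM in Ob + Exe. The groups overlapped, and the signal amounted to 0 to 23.2 read equivalents per library, so a difference was not detectable at this depth. In a fit with no minimum level the log2 difference of Procr was -0.55 (SE 0.637, unadjusted p = 0.434, adjusted p = 0.856, limma).

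**Figure D2:**
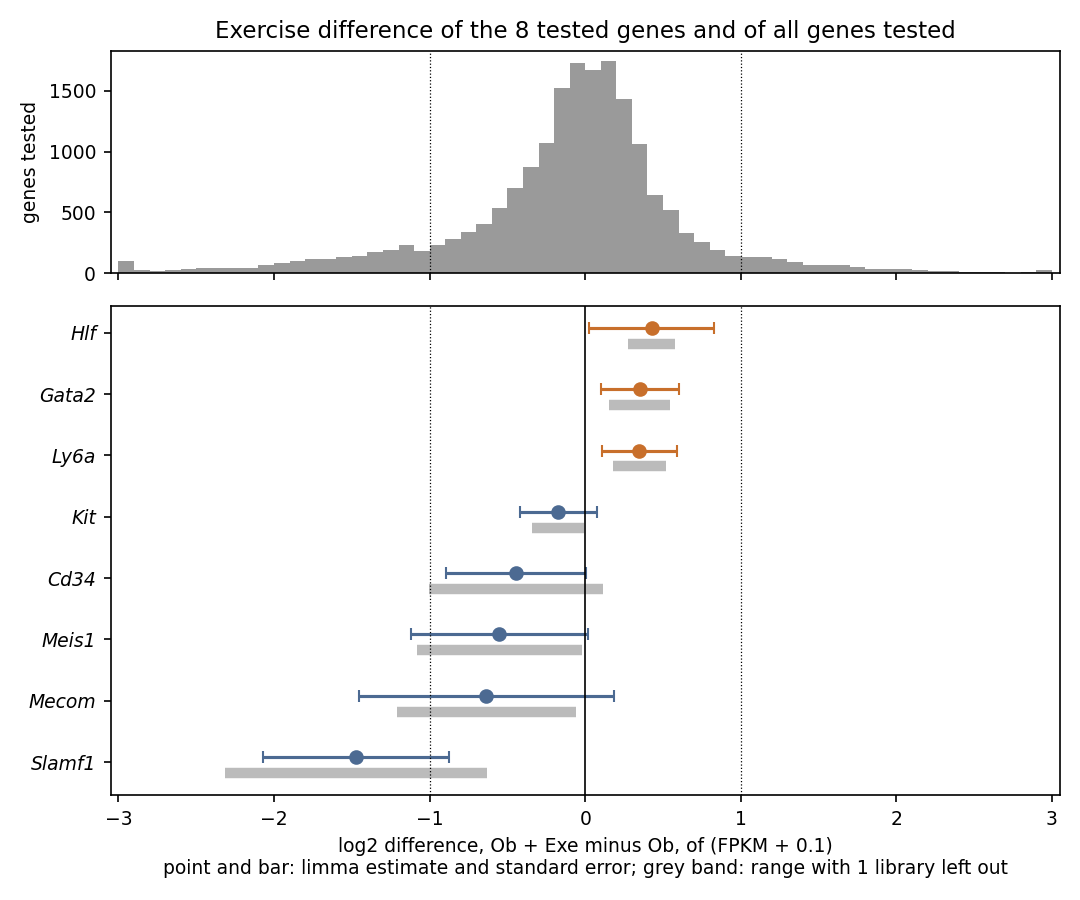
Upper panel, number of genes tested (vertical axis) by log2 difference, Ob + Exe minus Ob, with differences beyond 3 in size counted in the end bars. Lower panel, on the same horizontal axis, limma estimate (point) and standard error (bar) of the 8 tested genes and the range of the estimate with 1 library left out (grey band), where Slamf1 at -1.47 is the 1 gene past the dotted line at -1, and its band runs from -2.31 to -0.63.

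Gata2 (ENSMUSG00000015053.14, chr6:88193891-88207032, plus strand) encodes a zinc finger transcription factor needed for the formation and survival of stem cells and also for mast cells. Its level was 9.94 and 10.2 FPKM in Ob, against 14.8 and 11.2 FPKM in Ob + Exe. Both exercised libraries lay above both sedentary ones, and the second Ob + Exe library was close to them. The means were 10.1 ± 0.197 and 13.0 ± 2.50 FPKM (SD, n = 2 each), with a log2 difference of 0.35 (SE 0.251) that did not pass the test (unadjusted p = 0.213, adjusted p = 0.960, limma). Read equivalents scaled for depth numbered 2096 and 2109 in Ob, against 2919 and 2350 in Ob + Exe, and were separated too.

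Gata2 is read from separate first exons. The upstream transcript starts at chr6:88193891 and the downstream transcript at chr6:88198334, and both have 1440 coding bases. The downstream transcript took 67.3% and 49.2% of the gene's FPKM in Ob, against 28.4% and 67.4% in Ob + Exe. The upstream transcript took 31.2% and 50.8% in Ob, against 68.3% and 30.3% in Ob + Exe. The first Ob and the second Ob + Exe library were alike in these shares, and the groups overlapped. From the most abundant transcript alone the log2 difference of Gata2 was -0.040. The 250 bases before the upstream start, from RefSeq (GRCm38.p6, chr6:88193641-88193890, plus strand), are shown because the choice of start is what separates these transcripts. The single motif match in them, a GC box that lies 131 bases before the start, is in capitals.
Gata2: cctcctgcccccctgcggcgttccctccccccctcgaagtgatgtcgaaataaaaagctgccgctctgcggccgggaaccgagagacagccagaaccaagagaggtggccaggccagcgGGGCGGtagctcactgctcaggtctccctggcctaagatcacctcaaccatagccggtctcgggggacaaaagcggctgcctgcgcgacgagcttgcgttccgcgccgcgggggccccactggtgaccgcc
RefSeq gave 11 windows of 250 bases for 8 of the 9 genes, with more than 1 for Gata2, Kit and Mecom, and those of Kit overlap. The GC box was in 6 of the 11 windows, belonging to Gata2, Hlf, Kit and Mecom, and in 32.7% of all 32851 windows of the same length. The overlapping Kit windows hold the same GC box, which was counted in both. The CCAAT box was in 3, of Gata2, Mecom and Meis1, and in 33.8% of all windows. RUNX and ETS letters were in the Meis1 window, MEIS letters in 1 Mecom window and an E-box in the Procr window, against 14.0%, 19.7%, 15.9% and 13.0% of all windows. GATA letters and a TATA box were in none of the 11, against 9.99% and 12.4% of all windows.

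Meis1 (ENSMUSG00000020160.18, chr11:18879817-19018985, minus strand) encodes a homeobox protein that acts with HOX and PBX factors in stem cells and early progenitors. Its level was 1.85 and 0.832 FPKM in Ob, against 0.998 and 0.669 FPKM in Ob + Exe. The first Ob library was high, and the other 3 overlapped. The means were 1.34 ± 0.718 and 0.834 ± 0.233 FPKM (SD, n = 2 each), with a log2 difference of -0.55 (SE 0.567) that did not pass the test (unadjusted p = 0.370, adjusted p = 0.964, limma). In read equivalents scaled for depth the libraries held 415 and 374 in Ob, against 453 and 312 in Ob + Exe, and the first Ob library no longer stood apart. That library had 77.5% of the FPKM of Meis1 in a transcript of 3196 bases that was listed at 0 in the others. The others had 94.9% to 100% in a transcript of 7553 bases. FPKM divides by length, and on read equivalents the log2 difference of Meis1 was -0.06 (limma voom, unadjusted p = 0.865), while it was 1.20 from the most abundant transcript alone. Meis1 also shares 17.0% of its 50-base stretches with other genes.

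Hlf (ENSMUSG00000003949.16, chr11:90336536-90390895, minus strand) encodes a basic leucine zipper factor that in blood is largely limited to stem cells and the earliest progenitors and keeps them quiescent. Its level was 1.53 and 1.28 FPKM in Ob, against 2.14 and 1.72 FPKM in Ob + Exe. Both exercised libraries lay above both sedentary ones, by less than the distance between the libraries of a group. The means were 1.41 ± 0.176 and 1.93 ± 0.297 FPKM (SD, n = 2 each), with a log2 difference of 0.43 (SE 0.400) that did not pass the test (unadjusted p = 0.329, adjusted p = 0.960, limma). Scaled for depth, read equivalents were 349 and 372 in Ob, against 744 and 514 in Ob + Exe, and on read equivalents the log2 difference was 0.79 (limma voom, unadjusted p = 0.0560). The main transcripts were Hlf-201, with 39.1% and 70.2% in Ob, against 100% and 75.2% in Ob + Exe, and Hlf-203, with 38.3% and 29.8% in Ob, against 0% and 24.2% in Ob + Exe.

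Mecom (ENSMUSG00000027684.16, chr3:29951296-30548008, minus strand) encodes EVI1 and the longer MDS1-EVI1 protein, zinc finger regulators required for long-term stem cells. Its level was 0.271 and 0.187 FPKM in Ob, against 0.0410 and 0.213 FPKM in Ob + Exe. The first Ob + Exe library was low, and the second lay between the Ob libraries. The means were 0.229 ± 0.0591 and 0.127 ± 0.122 FPKM (SD, n = 2 each), with a log2 difference of -0.63 (SE 0.819) that did not pass the test (unadjusted p = 0.469, adjusted p = 0.971, limma) and was 0.065 after quantile normalization. Mecom rested on 13.8 to 105 read equivalents per library. All of its signal was assigned to Mecom-202 except in the second Ob + Exe library, where Mecom-202 took 36.4% and Mecom-212, which has a far upstream start, took 44.4%.

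**Figure D3:**
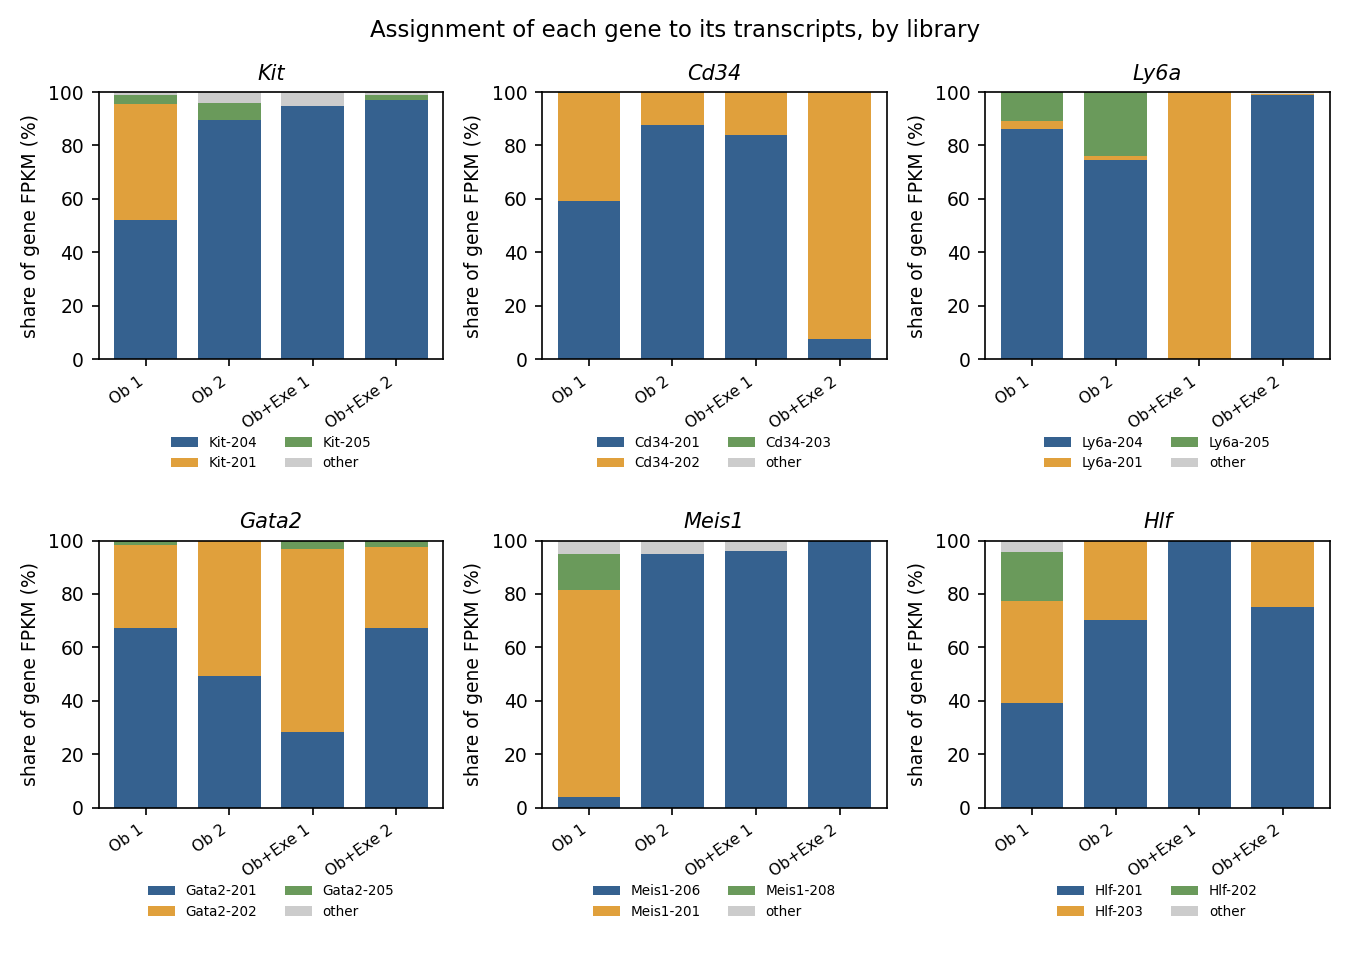
Share of each gene's summed FPKM (vertical axis, %, from 0 to 100) assigned to its annotated transcripts in the 4 libraries (bars), for Kit, Cd34, Ly6a, Gata2, Meis1 and Hlf. Libraries of 1 group often differ, as for the long-tailed Cd34 transcript (blue) at 83.9% and 7.39% in Ob + Exe and Kit-201 at 43.5% and 0% in Ob.

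The genes of the same cells were then described in 3 lists written from general knowledge, of 60 genes in all, 56 of them tested. The lists were written with earlier results of these data known, so their counts and shares are descriptions only. None of the 56 was called in either direction, where 3.74% of all genes tested were. Of the 56, 4 had an unadjusted p under 0.05 in limma, Ldb1, Adgrg1, Cd38 and Ifitm1, where 939 of all 18596 genes tested did. With limma voom on read equivalents 1 was called, Hoxa9, where 460 of all genes tested were. The log2 difference was negative for 36 and positive for 20, with a median of -0.12 against -0.02 over all genes tested. Groups were separated with Ob + Exe lower for 18 genes, 32.1%, and with Ob + Exe higher for 4, 7.14%, against the 18.4% and 14.3% of all genes.

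Among 25 tested nuclear regulators the median log2 difference was -0.06, with 5 separated lower, 20.0%, and 2 separated higher, 8.00%, where 18.4% and 14.3% of all genes were. Ldb1, a bridging cofactor of GATA and TAL1 complexes, was at 47.1 and 54.2 FPKM in Ob, against 35.6 and 33.2 FPKM in Ob + Exe, a log2 difference of -0.55 (unadjusted p = 0.0346, adjusted p = 0.960, limma). Hoxa9, a homeobox factor of stem and progenitor cells, was at 1.05 and 1.72 FPKM in Ob, against 0.311 and 0.785 FPKM in Ob + Exe, a log2 difference of -1.26 (unadjusted p = 0.0856, limma). Hhex, a homeobox factor, was at 24.5 and 18.4 FPKM in Ob, against 28.2 and 32.1 FPKM in Ob + Exe. Tal1, a helix-loop-helix partner of GATA factors, was at 54.4 and 59.8 FPKM in Ob, against 62.9 and 82.5 FPKM in Ob + Exe. The first pair was lower and the second pair higher in both exercised libraries, and none of the 4 passed the thresholds for a call. The log2 difference was 0.50 for Hhex and 0.34 for Tal1, with unadjusted p values of 0.0811 and 0.184 in limma.

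Among 19 tested surface proteins 15 log2 differences were negative and 4 positive, with a median of -0.36. Groups were separated with Ob + Exe lower for 10 of them, 52.6%, and higher for 1, 5.26%, against 18.4% and 14.3% of all genes. Adgrg1, the adhesion receptor GPR56, was at 18.9 and 15.0 FPKM in Ob, against 10.4 and 10.7 FPKM in Ob + Exe (log2 difference -0.67, unadjusted p = 0.0310, adjusted p = 0.960, limma). Cd38, an enzyme that uses NAD, was at 9.50 and 9.23 FPKM in Ob, against 5.84 and 6.34 FPKM in Ob + Exe (log2 difference -0.61, unadjusted p = 0.0483, adjusted p = 0.960, limma). Prom1, a membrane glycoprotein, was the 1 gene separated higher, at 14.8 and 13.9 FPKM in Ob, against 19.6 and 17.8 FPKM in Ob + Exe (log2 difference 0.38, unadjusted p = 0.129, limma). Adgrg1, Cd38 and Prom1 each had close libraries in Ob + Exe.

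Cd48 and Flt3, partners read beside Slamf1 and Kit in sorting stem cells, were not called. Cd48, which is carried by progenitors and not by stem cells, was at 36.4 and 37.4 FPKM in Ob, against 35.3 and 33.3 FPKM in Ob + Exe, a log2 difference of -0.11 (unadjusted p = 0.605, limma). Flt3, the receptor of multipotent and lymphoid progenitors, was at 3.19 and 2.61 FPKM in Ob, against 2.56 and 2.30 FPKM in Ob + Exe, a log2 difference of -0.24 (unadjusted p = 0.514, limma). For both genes the Ob + Exe libraries lay below the Ob libraries by a small margin.

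Among 12 genes of quiescence, signalling and other stem cell functions the median log2 difference was -0.06, with 3 separated lower, 25.0%, and 1 higher, 8.33%, beside 18.4% and 14.3% of all genes. Angpt1, the ligand of the receptor TIE2, was at 5.28 and 5.16 FPKM in Ob, against 3.996 and 3.012 FPKM in Ob + Exe (log2 difference -0.58, unadjusted p = 0.112, limma). Fgd5, a stem cell marker also found in endothelium, was at 0.193 and 0.614 FPKM in Ob, against 0.153 and 0.152 FPKM in Ob + Exe (log2 difference -0.86, unadjusted p = 0.312, limma). Ifitm1, an interferon-induced membrane protein, was at 39.0 and 32.9 FPKM in Ob, against 51.3 and 87.9 FPKM in Ob + Exe (log2 difference 0.91, unadjusted p = 0.0258, adjusted p = 0.960, limma). Angpt1 and Ifitm1 were clear of overlap, and Fgd5 was separated by a small margin.

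Genes for ligands and anchors of the stem cell niche gave 0 of 8 tested genes called in limma, where 3.74% of all genes were. Which cells made these transcripts cannot be told from bulk RNA. The median log2 difference of the 8 genes was 0.11. Of the 8, 1 gene, Tgfb1, had an unadjusted p under 0.05 in limma, where 939 of all 18596 genes did. Groups were separated with Ob + Exe lower for 1 of the 8, 12.5%, and higher for 2, 25.0%, against 18.4% and 14.3% of all genes. Kitl, which encodes stem cell factor, was at 3.28 and 4.97 FPKM in Ob, against 3.69 and 5.45 FPKM in Ob + Exe, a log2 difference of 0.15 (unadjusted p = 0.701, limma), and its groups overlapped. Tgfb1, which encodes a cytokine known for holding stem cells in quiescence, was at 64.5 and 52.6 FPKM in Ob, against 35.1 and 39.2 FPKM in Ob + Exe, a log2 difference of -0.65 (unadjusted p = 0.0237, adjusted p = 0.960, limma). Jag1, a Notch ligand, was at 1.03 and 1.31 FPKM in Ob, against 1.58 and 1.71 FPKM in Ob + Exe, and Vcam1, the adhesion partner of the integrin VLA-4, was at 35.8 and 35.3 FPKM in Ob, against 40.2 and 38.4 FPKM in Ob + Exe. Jag1 and Vcam1 were higher in both exercised libraries, by log2 differences of 0.46 and 0.14 (unadjusted p = 0.311 and 0.482, limma). Thpo and Il3 were listed at 0 in all 4 libraries.

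Of 20 genes of progenitors committed to single lineages, 1 was called, where 3.74% of all genes were, and the median log2 difference was -0.18. The called gene was Igll1, a part of the surrogate light chain of B cell precursors, at 14.3 and 12.8 FPKM in Ob, against 4.94 and 3.54 FPKM in Ob + Exe, which fell by 1.67 on the log2 scale (SE 0.283, unadjusted p = 0.00119, adjusted p = 0.939, limma). Vpreb3, of the same stage, was at 48.3 and 52.0 FPKM in Ob, against 32.5 and 31.5 FPKM in Ob + Exe (log2 difference -0.65, unadjusted p = 0.0164, limma). Both genes were well separated, with close libraries within each group. Over the 20 genes the groups were separated with Ob + Exe lower for 4, 20.0%, and higher for 0, against 18.4% and 14.3% of all genes. The log2 difference was negative for 14 of the 20 and positive for 6.

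**Figure D4:**
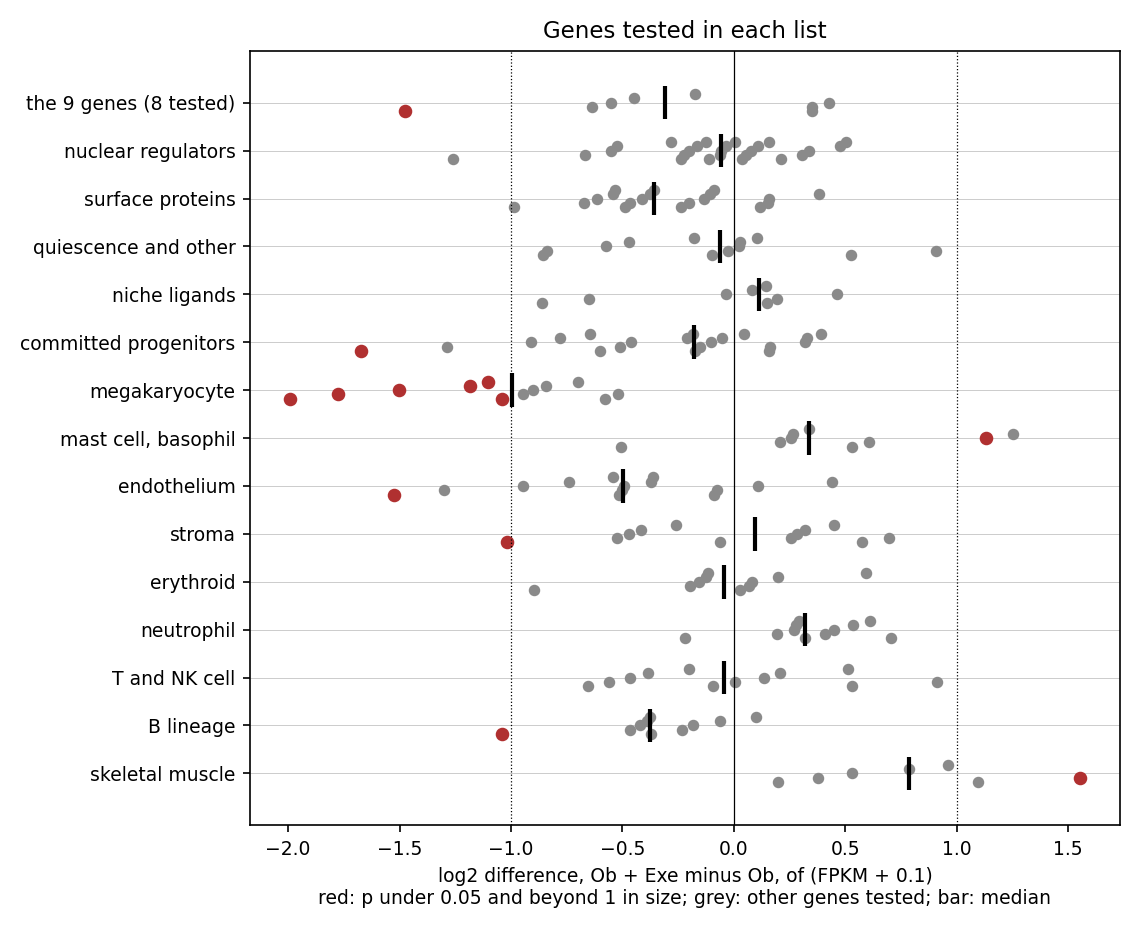
Log2 difference, Ob + Exe minus Ob (horizontal axis), of each tested gene (points) in the 9 genes and in 14 lists of other genes (one per line), with called genes in red and a bar at the median. The median was -0.31 for the 9 genes, -0.36 for the other surface proteins and -0.99 for megakaryocyte genes. Of the 12 megakaryocyte genes 6 were called lower, where 2.75% of all genes tested were.

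Markers of other marrow cells were described in the same libraries. Their lists too were written with earlier results of these data known, so the counts are descriptions only. In bulk RNA, fewer cells of a type and less RNA per cell cannot be told apart. All 12 megakaryocyte and platelet genes had negative log2 differences, with a median of -0.99, where 51.8% of all genes tested were negative. Of the 12, 6 were called lower, where 2.75% of all genes were, namely Gp1ba, Gp1bb, Tubb1, Clec1b, Gp5 and Treml1, with log2 differences of -1.99, -1.78, -1.50, -1.18, -1.10 and -1.04. The summed level of all 12 genes was 421 and 308 FPKM in Ob, against 290 and 122 FPKM in Ob + Exe. By this sum the second Ob + Exe library was again the lowest, as for Slamf1 and Cd34. Among the 6 called genes only Gp1bb was lowest in the first Ob + Exe library, at 2.16 FPKM against 4.42 FPKM in the second. The part of megakaryocytes in the Slamf1 difference was not tested. Of 14 endothelial genes, 12 had negative log2 differences, with a median of -0.50. Their summed level was 46.9 and 37.1 FPKM in Ob, against 38.6 and 27.1 FPKM in Ob + Exe. Of the 14, 1 was called lower, Plvap at -1.52, where 2.75% of all genes were. Of 10 B lineage genes, 9 were negative, with a median of -0.38. Their summed levels were 214 and 223 FPKM in Ob, against 178 and 149 FPKM in Ob + Exe. Of the 10, 1 was called lower, Cd79a at -1.04, where 2.75% of all genes were. For 12 T and natural killer cell genes the median was -0.05, with summed levels of 88.5 and 53.7 FPKM in Ob, against 87.7 and 61.2 FPKM in Ob + Exe. None of the 12 was called, where 3.74% of all genes tested were. None had an unadjusted p under 0.05 in limma, where 939 of all 18596 genes did.

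Genes of mast cells and basophils had a median log2 difference of 0.33, with 8 of 9 tested genes positive and summed levels of 264 and 177 FPKM in Ob, against 248 and 358 FPKM in Ob + Exe. Of the 9, 1 was called higher, Hdc, the enzyme that makes histamine, at 1.13, where 0.995% of all genes were. The mast cell tryptases Tpsab1 and Tpsb2 were listed at 0 in all libraries. The part of these cells in the Gata2 and Kit values was not tested. Of 11 neutrophil genes 10 were positive, with a median of 0.32, and for 10 erythroid genes the median was -0.04. Neither list had a called gene, where 3.74% of all genes tested were called. Neither had one with an unadjusted p under 0.05 in limma, where 939 of all 18596 genes did. Neutrophil genes summed to 50326 and 28509 FPKM in Ob, against 36801 and 67666 FPKM in Ob + Exe. Erythroid genes summed to 74275 and 74219 FPKM in Ob, against 55445 and 83519 FPKM in Ob + Exe. Both sums were highest in the second Ob + Exe library, and their part in its low Slamf1 and Cd34 values was not tested. For 12 stroma genes the median was 0.10, and 1 was called lower, Col1a1 at -1.02, where 2.75% of all genes were. For 7 tested skeletal muscle genes the median was 0.79, and 1 was called higher, Acta1 at 1.55, where 0.995% of all genes were. Muscle genes summed to 12.0 and 7.64 FPKM in Ob, against 16.3 and 16.4 FPKM in Ob + Exe, and Myh2 was listed at 0.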

How the data were processed

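Poly(A) RNA of tibial marrow was sequenced by the study in 4 libraries of 2 groups. The authors checked and trimmed reads with FastQC and fastp, aligned them to GRCm38 with HISAT2, filtered alignments using SAMtools and used StringTie to quantify the transcripts of GENCODE vM25. Tool versions are not given in the sources used here. The library kit, as named in the methods, does not mark strand. The authors deposited, for each of 142604 transcripts, the read coverage, a signal not normalized for depth, and the FPKM, which is normalized for transcript length and library size. The authors tested with DESeq2, which takes counts and so was not run here.

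Transcript FPKM were summed to 55401 genes, scaled with median-of-ratios factors over the 15825 genes above 0 in every library (0.945 to 1.04), and then, on a log2(FPKM + 0.1) scale, tested in limma 3.58.1 in R 4.3.3 (eBayes with an intensity trend, 2 residual and 3.79 prior degrees of freedom), with Benjamini-Hochberg adjustment over the 18596 genes with a mean of at least 0.1 FPKM. The log2 scale with 0.1 added understates differences of low genes. The thresholds for a call were those of the study's methods. Read equivalents are coverage times length over 150 bases, 44310500 to 53038200 per library, and are not whole reads. The fit was checked on simulated data. Alternatives were other minimum levels, pseudocounts and scalings, limma voom on read equivalents, a fit without the intensity trend, the most abundant transcript alone, leaving out each library, and the replicate number as a block.

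Members and lists were chosen with earlier results of these data known. Genes named are the 9 members, called genes of the lists and, per list of stem cell, niche and committed progenitor genes and per direction, the 2 with the smallest p among separated genes, with Kitl, Flt3 and Cd48, and markers listed at 0, and 1 gene that the rule names is not reported here. Sequences came from GENCODE vM21 and RefSeq. Gene coordinates are those of the deposited tables. Tables and figures were made with Python 3.11.15, pandas 2.3.3 and matplotlib 3.10.9.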

Additional observations from a re-analysis of the deposited data

How the results depend on the processing

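With 2 libraries per group the number of genes called, 696, ran from 745 to 1919 with 1 library left out (1260 without the first and 1919 without the second Ob + Exe library, where the lone library is assumed to vary like the others). It was 270 with a minimum mean of 1 FPKM, 222 with a pseudocount of 1, 460 with limma voom and 1059 without the intensity trend. The share called lower was 73.4%, and over the alternatives it ran from 62.8% after quantile normalization to 87.4% without the second Ob library. Without scaling the median of all genes was -0.10.

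Of the 9 genes, 1 was called, Slamf1, and 0 were called with no minimum level, with a pseudocount of 0.01, without the intensity trend and from the most abundant transcript. With 1 library left out the count was 0 to 1, and the call was kept only without the first Ob + Exe library. The log2 difference of Slamf1 stayed negative in every alternative run, from -2.31 to -0.63, with adjusted p values of 0.397 to 1 in limma. Over the 60 other stem and progenitor genes, 56 of them tested, the count was 0, and it was 1 with limma voom. With 1 library left out it was 0 to 4. The fits with 1 library left out also called more of all genes tested than the reported fit, as given above. A higher count in those fits is therefore not read as particular to these genes. With limma voom 460 of all genes tested were called, fewer than the 696 of the reported fit. The count of 4 was without the first Ob + Exe library and included Esam and Mycn, lower, and Ifitm1, higher.

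Directions turned for Kit (0.31), Gata2 (-0.040), Meis1 (1.20) and Ly6a (-3.41) from the most abundant transcript, for Mecom (0.065) after quantile normalization and for Cd34 (-1.01 to 0.11 with 1 library left out). None of these passed the test in the reported fit, and the cause was not tested.

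The replicate numbers come from labels that tie them to no mouse, and same-numbered libraries did not deviate together (correlation -0.11 over 18596 genes), so the block was not used. Adding the replicate number as a block gave 744 called genes, 18 of them with an adjusted p under 0.05 in limma, and among the 9 genes again Slamf1. A crossed pairing, added after seeing the data, gave 802 and 11.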
